A study of Homo sapiens with 27 samples.

Results

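The TIMP inhibitors and the ADAM sheddases were followed in U937, a human cell line derived from a histiocytic lymphoma that keeps many traits of monocytes. The members were the 10 genes TIMP1, TIMP2, TIMP3, TIMP4, ADAM8, ADAM9, ADAM10, ADAM15, ADAM17 and ADAM19, taken by symbol from the array platform's probe table. Each matched 1 probe, so 10 probes were read out of 30968 on the array, where 15207 genes were named. There were 3 treatments. Cells labelled PBD150 plus LPS were given 10 µM PBD150, an inhibitor of glutaminyl cyclase, for 2 h and then lipopolysaccharide (LPS, which bacteria carry on their outer membrane and which macrophages sense through TLR4) at 4 µg/ml. Cells labelled LPS had the same dose of LPS alone, and untreated cells had neither agent. All were cultured for 48 h, and a group held 3 biological replicates, each read on 3 of the 27 arrays (n = 3 per group below). The labels call the cells macrophages but name no differentiating agent, and neither a vehicle control nor PBD150 without LPS was analysed here.

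TIMPs are small secreted proteins that block the zinc-containing active site of matrix metalloproteinases (MMPs). TIMP3 also inhibits ADAM17 and TIMP1 and TIMP3 inhibit ADAM10. ADAMs are membrane-anchored proteases of the metzincin family that cut the outer part of other membrane proteins and so release cytokines, chemokines, growth factors and receptors. ADAM17 is best known in macrophages for releasing TNF, and ADAM10 for releasing the membrane chemokines CX3CL1 and CXCL16 and for cutting Notch. The array measured RNA, and neither protease activity nor inhibitor protein was read.

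Values are log2 intensities after quantile normalisation over the arrays, averaged over the 3 arrays of a culture. Differences were tested with limma over all 30968 probes and called at a Benjamini-Hochberg adjusted p under 0.05. The labels call the replicates biological but do not say that they were separate cultures, so p-values measure the spread between these samples of 1 cell line. Each is called a culture below. The median intensity of an array was 41.5 to 100.3, and untreated replicate 1 was dim, with log2 medians of 5.37 to 5.55 against 6.12 to 6.23 in the other untreated replicates. All 9 measured monocyte and macrophage markers (CD14, CD33, CSF1R, ITGAM, ITGAX, LYZ, SPI1, TYROBP and CD163) were above the noise limit (3 times the root mean square of the values below 0) on every array. Their summed deposited intensity per culture was 177989 to 206449 with PBD150 plus LPS, 184929 to 185786 with LPS and 7738 to 10257 untreated. These sums and the marker sums that follow were not scaled between arrays, so they also hold differences in array brightness. Each of 8 measured T or NK lymphocyte markers was above the limit on at least 1 array of every group, with sums of 31616 to 39405 with PBD150 plus LPS, 40712 to 46238 with LPS and 12689 to 17728 untreated. Sums for 6 fibroblast markers were 1135 to 1201, 958 to 1352 and 517 to 692 in the same order of groups. For 3 B lymphocyte markers they were 539 to 644, 660 to 879 and 821 to 1135, and for 2 epithelial markers 153 to 184, 144 to 191 and 24.6 to 57.2. COL3A1 was above the noise limit on no array of either treated group. The part of any of these shifts in the results below was not tested. RNA per cell and the number of cells expressing a gene cannot be told apart in these bulk samples.

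Stretches of 250 bases before the RefSeq transcription start (GRCh38.p14) are shown for TIMP1, ADAM8 and ADAM10, which rose together with LPS, and for ADAM17, whose difference was not called. Each reads 5′ to 3′ along the gene's strand. Capitals mark matches on either strand to TGAGTNA, an AP-1 type motif, and to AGGAAG, an ETS type motif. The stretches lie at chrX:47582186-47582435 (plus strand) for TIMP1 and on the minus strand at chr10:133276869-133277118 for ADAM8, chr15:58749708-58749957 for ADAM10 and chr2:9555831-9556080 for ADAM17.
TIMP1: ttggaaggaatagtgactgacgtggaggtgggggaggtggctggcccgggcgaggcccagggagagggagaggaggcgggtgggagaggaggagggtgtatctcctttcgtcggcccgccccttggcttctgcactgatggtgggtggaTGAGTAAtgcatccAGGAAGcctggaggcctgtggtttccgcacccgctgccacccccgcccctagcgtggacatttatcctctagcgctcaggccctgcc
ADAM8: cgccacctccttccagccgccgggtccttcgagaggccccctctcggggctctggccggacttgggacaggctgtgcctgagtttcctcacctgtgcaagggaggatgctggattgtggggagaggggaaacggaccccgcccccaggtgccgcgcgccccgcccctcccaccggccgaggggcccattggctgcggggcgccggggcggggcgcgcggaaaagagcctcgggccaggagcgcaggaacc
ADAM10: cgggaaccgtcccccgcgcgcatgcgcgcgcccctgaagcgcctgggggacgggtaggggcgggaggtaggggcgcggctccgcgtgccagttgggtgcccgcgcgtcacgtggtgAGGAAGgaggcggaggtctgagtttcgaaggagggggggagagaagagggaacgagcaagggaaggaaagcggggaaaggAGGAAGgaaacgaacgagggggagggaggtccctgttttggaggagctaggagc
ADAM17: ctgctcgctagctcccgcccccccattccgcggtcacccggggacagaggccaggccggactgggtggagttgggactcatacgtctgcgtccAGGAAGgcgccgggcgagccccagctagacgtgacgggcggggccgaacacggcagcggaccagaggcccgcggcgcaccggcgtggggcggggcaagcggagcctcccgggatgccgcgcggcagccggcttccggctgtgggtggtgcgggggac
Promoters of 8 members were in the RefSeq table, TIMP2 and ADAM9 not among them. TGAGTNA was found in 1 of the 8, at positions -101 to -95 of TIMP1, followed by AGGAAG at -87 to -82, and in 10.8% of all 35116 promoters. AGGAAG was found in 4 of the 8 (TIMP1, TIMP4, ADAM10 and ADAM17) and in 28.7% of all. The GC box GGGCGG was in 7 of the 8, ADAM19 being the exception, and in 42.6% of all. The NF-kB consensus was in 3 of the 8 (ADAM10, ADAM17 and ADAM19) and in 9.96% of all. No matches to different motifs overlapped in these stretches. These are letter matches in a short window, and a motif that is missing here may lie elsewhere.

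With LPS, 5 of the 10 members rose and 0 fell. They were TIMP1 and TIMP2 among the inhibitors and ADAM8, ADAM10 and ADAM19 among the proteases. Over all probes 22.5% were called in this comparison, 10.6% as higher. Replicate groups did not overlap for the same 5 members, against 43.4% of all probes. The median difference of the 10 members was 0.50 (log2), that of all probes 0.08.

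TIMP1, the inhibitor that also binds pro-MMP9, lies at chrX:47582436-47586789. It stood at 13.83, 14.21 and 14.45 in LPS cultures and at 11.31, 11.28 and 11.38 in untreated cultures. Every LPS culture lay far above every untreated one. The difference was 2.84 ± 0.21 (log2, SE), a 7.17-fold rise (limma adjusted p = 7.25e-05), and in deposited intensity the group means were 21933 with LPS and 2337 untreated. TIMP2, which inhibits MMP2 and in complex with MMP14 also takes part in its activation, lies at chr17:78852977-78925387. It had 12.91, 13.60 and 13.33 in LPS cultures and 11.33, 11.23 and 11.36 in untreated cultures. The groups again stood well apart, and TIMP2 rose by 1.97 ± 0.21, or 3.93-fold (limma adjusted p = 0.000316).

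TIMP3, the inhibitor that stays bound to the matrix, lies at chr22:32801705-32863041 and gave almost no signal. Its probe was above the noise limit on 3 of 9 arrays with PBD150 plus LPS, 2 of 9 with LPS and 2 of 9 untreated. Its values were 3.03, 4.23 and 1.95 in LPS cultures and 3.27, 2.95 and 2.74 in untreated cultures, so the LPS cultures enclosed the untreated ones. The 95% interval of its difference ran from -1.21 to 1.37, which excludes no 2-fold change in either direction. TIMP4, known for its high level in heart, lies at chr3:12153068-12158912 and was dim, above the noise limit on 8 of 9 LPS arrays and all 9 untreated ones. It had 4.51, 5.15 and 5.63 in LPS cultures against 4.93, 4.80 and 4.90 in untreated cultures, with LPS replicate 1 below all untreated values. The difference of 0.22 ± 0.38 was not called (limma adjusted p = 0.728).

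Among the proteases, ADAM8 had the largest LPS difference. ADAM8, a myeloid ADAM that activates itself by cutting off its own prodomain, lies at chr10:133262423-133276868. Its values were 6.60, 7.37 and 6.86 in LPS cultures and 5.59, 5.60 and 5.50 in untreated cultures. No LPS culture came near the untreated range, and the rise was 1.38 ± 0.22, or 2.60-fold (limma adjusted p = 0.00246). The 3 arrays of a culture scattered more for this probe than the cultures did, with a pooled SD of 0.516 between arrays and 0.229 between cultures. ADAM10, the main sheddase of CX3CL1, CXCL16 and Notch, lies at chr15:58588809-58749707. It had 11.88, 12.05 and 12.06 in LPS cultures and 11.19, 11.13 and 11.17 in untreated cultures. It was the steadiest of the 10 probes between cultures (pooled SD 0.0747), and it rose by 0.84 ± 0.16, or 1.79-fold (limma adjusted p = 0.00593).

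ADAM19, or meltrin beta, which cuts neuregulins, lies at chr5:157477304-157575775. It had 7.56, 7.84 and 8.23 in LPS cultures and 7.14, 7.02 and 7.13 in untreated cultures. The groups did not overlap, and the rise was 0.78 ± 0.23, or 1.72-fold (limma adjusted p = 0.0403). This call was the least stable of the 5. It was lost without any 1 of 7 of the 9 replicates, with adjusted p of 0.0507 to 0.126, and with median centring in place of quantile normalisation (adjusted p = 0.103). The replicates in question were all but LPS replicate 1 and PBD150 plus LPS replicate 3.

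The other 3 proteases were not called. ADAM17, the TNF-releasing enzyme, lies at chr2:9488486-9555830. It had 10.31, 11.32 and 11.00 in LPS cultures and 10.67, 10.74 and 10.60 in untreated cultures. LPS replicate 1 lay below all untreated cultures while LPS replicates 2 and 3 lay above them. The difference was 0.21 ± 0.26 (limma adjusted p = 0.628), with a 95% interval of -0.40 to 0.81. Without LPS replicate 1 it was 0.49 (adjusted p = 0.107), and without LPS replicate 2 it was -0.01.

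ADAM9, or meltrin gamma, had 10.33, 10.15 and 9.96 in LPS cultures and 10.24, 10.04 and 10.08 in untreated cultures. The difference was 0.03, with a 95% interval of -0.44 to 0.50 (limma adjusted p = 0.937). ADAM15, or metargidin, which carries an integrin-binding RGD motif in its disintegrin domain, lies at chr1:155051316-155062775. It had 13.08, 13.08 and 13.31 in LPS cultures and 13.28, 13.20 and 13.27 in untreated cultures, a difference of -0.10 with a 95% interval of -0.47 to 0.28 (limma adjusted p = 0.727). For both genes the cultures of the groups were interleaved and the interval excluded a 2-fold change. The sign of these small differences was not stable. ADAM9 was at -0.14 with median centring, -0.06 without LPS replicate 1 and -0.008 without untreated replicate 2. ADAM15 was at 0.28 on the values as deposited.

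**Figure D1:**
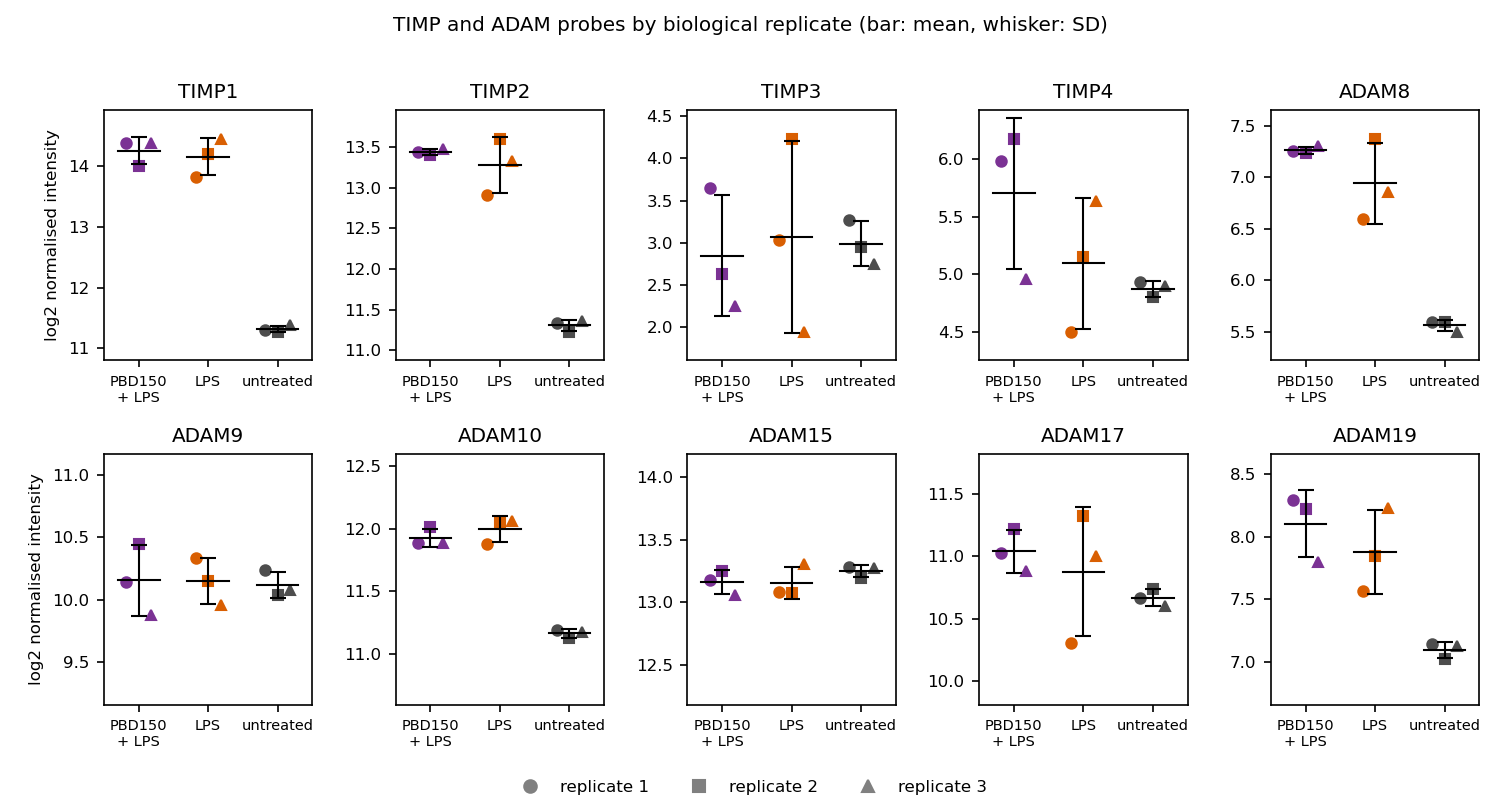
Log2 normalised intensity (y axis, a scale of its own for each gene) of the 10 probes in PBD150 plus LPS, LPS and untreated cultures (x axis). Points are biological replicates, bars means and whiskers SD (n = 3). Both treated groups stand above the untreated cultures for TIMP1, TIMP2, ADAM8, ADAM10 and ADAM19, while ADAM9 and ADAM15 overlap throughout.

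In each group the lowest values often came from 1 culture. LPS replicate 1 had the lowest value of the 3 LPS cultures for 7 of the 10 members, and for 41.5% of all probes. PBD150 plus LPS replicate 3 had the lowest value of its group for 7 members, and for 40.1% of all probes. Untreated replicate 2 had it for 7 members, and for 30.4% of all probes. Over the 5 called members the median rise above the untreated mean was 1.03 in LPS replicate 1, 1.80 in LPS replicate 2 and 1.29 in LPS replicate 3. In PBD150 plus LPS cultures it was 1.68, 1.67 and 1.74. In each treated culture this median was the value of ADAM8, and other members ordered the cultures differently. TIMP1 (2.89 and 3.13), ADAM10 (0.89 and 0.90) and ADAM19 (0.75 and 1.14) rose less in LPS replicate 2 than in LPS replicate 3. TIMP2 (2.29 and 2.03) rose more in LPS replicate 2, as ADAM8 did. Between untreated cultures the members differed little, with SDs of 0.03 to 0.10 for all but TIMP3 (0.27). Between LPS cultures the SDs were 0.10 to 0.57 for all but TIMP3 (1.14). Over all probes the median SD was 0.21 between untreated cultures and 0.36 between LPS cultures.

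The scaling of the arrays set part of each difference. On the values as deposited the median of all probes stood 0.41 above 0 instead of 0.08, and with median centring it stood at -0.07. TIMP1 was at 3.23 as deposited and 2.75 with median centring, TIMP2 at 2.33 and 1.85, ADAM8 at 1.77 and 1.29, and ADAM10 at 1.18 and 0.70. ADAM10 was close to the threshold with median centring (limma adjusted p = 0.0497). The plot of LPS differences under 4 ways of scaling shows that TIMP1, TIMP2, ADAM8 and ADAM10 passed under each of them and ADAM19 under all but median centring.

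**Figure D2:**
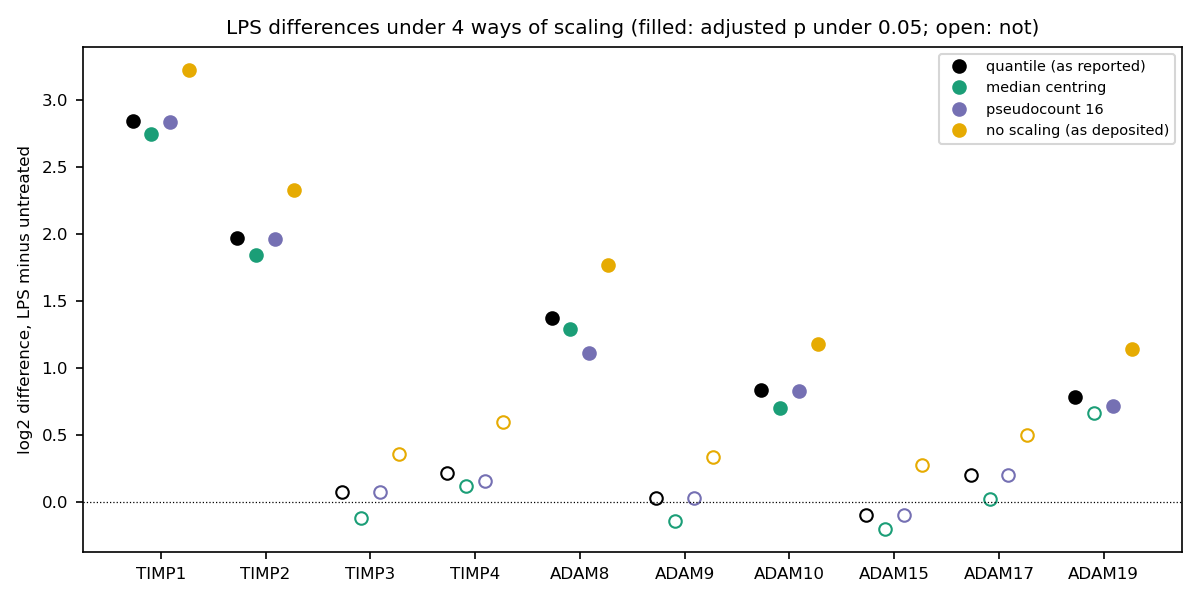
Log2 difference, LPS minus untreated (y axis), of each member (x axis) under 4 ways of scaling the arrays. Filled points passed at adjusted p under 0.05 (limma) and open points did not, and ADAM19 is open with median centring, at 0.66.

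The question in the study's title is what glutaminyl cyclase inhibition changes, and it is addressed by PBD150 plus LPS against LPS. None of the 10 members was called (limma), and none was past an unadjusted p of 0.05, against 5.11% of all probes. Adjusted calls were 0 of 10 by limma with culture means, where 0% of all probes were called. They were also 0 of 10 with all 27 arrays and the culture as a random block. In that fit 1 probe was called as higher and 13 as lower out of 30968. Replicate groups overlapped for all 10, while they did not overlap for 7.98% of all probes. The median member difference was 0.13 (log2), that of all probes 0.03.

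TIMP1 had 14.39, 14.01 and 14.38 in PBD150 plus LPS cultures against 13.83, 14.21 and 14.45 in LPS cultures. The values were interleaved, and the difference was 0.10 with a 95% interval of -0.39 to 0.58. TIMP2 had 13.44, 13.41 and 13.48 in PBD150 plus LPS cultures, inside the LPS range of 12.91 to 13.60, and its difference was 0.16 with an interval of -0.31 to 0.63. TIMP4 had 5.98, 6.17 and 4.96 in PBD150 plus LPS cultures against 4.51, 5.15 and 5.63 in LPS cultures. Of its cultures, 2 with PBD150 plus LPS lay above all LPS cultures and the third below LPS replicates 2 and 3. Its difference of 0.61 ± 0.38 was the largest of the members in size (limma adjusted p = 0.906), and the interval of -0.25 to 1.46 did not exclude a doubling. TIMP3 had 3.65, 2.64 and 2.26 in PBD150 plus LPS cultures, again near the noise limit, and a difference of -0.22 with an interval of -1.51 to 1.07.

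ADAM8 had 7.25, 7.24 and 7.30 in PBD150 plus LPS cultures against 6.60, 7.37 and 6.86 in LPS cultures. All 3 PBD150 plus LPS values lay between the upper pair of LPS cultures, and the difference was 0.32 with an interval of -0.17 to 0.82. ADAM10 had 11.89, 12.01 and 11.88 in PBD150 plus LPS cultures against 11.88, 12.05 and 12.06 in LPS cultures, a difference of -0.07 with an interval of -0.43 to 0.29. ADAM17 had 11.02, 11.22 and 10.88 in PBD150 plus LPS cultures, all inside the LPS range of 10.31 to 11.32, and its difference was 0.16 with an interval of -0.44 to 0.77. ADAM19 had 8.30, 8.22 and 7.80 in PBD150 plus LPS cultures against 7.56, 7.84 and 8.23 in LPS cultures, a difference of 0.23 with an interval of -0.30 to 0.75.

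ADAM9 had 10.14, 10.45 and 9.88 in PBD150 plus LPS cultures against 10.33, 10.15 and 9.96 in LPS cultures. ADAM15 had 13.18, 13.25 and 13.06 in PBD150 plus LPS cultures against 13.08, 13.08 and 13.31 in LPS cultures. Both differences were 0.01, with intervals of -0.46 to 0.48 for ADAM9 and -0.37 to 0.38 for ADAM15. In all, 8 of the 10 intervals excluded a 2-fold change in either direction, TIMP3 and TIMP4 being the exceptions. On the values as deposited TIMP1, TIMP2, TIMP3, ADAM9, ADAM10, ADAM15 and ADAM17 had negative differences, and the median of all probes was -0.12. The same 8 genes had intervals that excluded a 2-fold change in a fit of only these 2 groups, which leaves out the small spread of the untreated cultures.

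**Figure D3:**
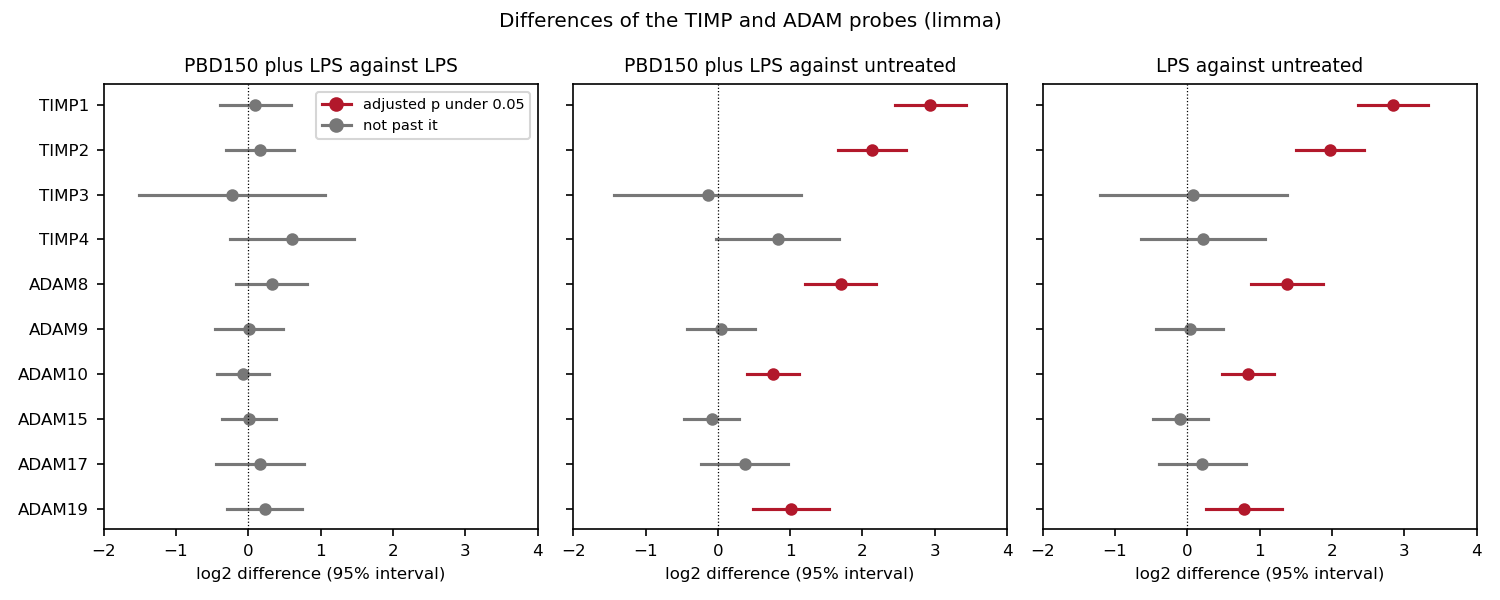
Log2 difference (x axis) of each member (y axis) with its 95% interval in PBD150 plus LPS against LPS, PBD150 plus LPS against untreated and LPS against untreated (limma, 3 replicates per group). Red marks an adjusted p under 0.05. No member is red in the first comparison and 5 are in each of the others, which share the untreated cultures.

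Against untreated cells, TIMP1, TIMP2, ADAM8, ADAM10 and ADAM19, 5 of 10 members, rose with PBD150 plus LPS and 0 fell, where 26% of all probes were called and 12.6% were higher. This comparison shares its untreated cultures with LPS against untreated, so the calls are given side by side and not as a second observation. TIMP1 rose by 2.94 ± 0.21 with PBD150 plus LPS and by 2.84 with LPS. TIMP2 was at 2.14 and 1.97, ADAM8 at 1.70 and 1.38, ADAM10 at 0.76 and 0.84, and ADAM19 at 1.01 and 0.78 in the same order. The adjusted p (limma) with PBD150 plus LPS ran from 4.91e-05 for TIMP1 to 0.0124 for ADAM19.

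Some of these calls depended on the setting. ADAM10 was lost with median centring (0.54, limma adjusted p = 0.108), and ADAM19 without untreated replicate 2 (adjusted p = 0.0508). For TIMP4 all 3 PBD150 plus LPS cultures lay above the untreated ones, and its difference was 0.83 ± 0.38 (limma adjusted p = 0.144). It passed without PBD150 plus LPS replicate 3, at 1.20 (adjusted p = 0.0274), and with all 27 arrays and the culture as a random block (adjusted p = 0.015). ADAM17 also lay above all untreated cultures in each PBD150 plus LPS culture, by 0.37 ± 0.26 (limma adjusted p = 0.34), and did not pass. Replicate groups thus did not overlap for 7 of the 10 members, against 45.3% of all probes.

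Proteases that TIMPs inhibit and partners of TIMPs mostly rose. Of 14 genes in this list 11 rose with LPS and 0 fell, with a median of 1.82, against 10.6% higher, 11.8% lower and a median of 0.08 over all probes. MMP9, a gelatinase, rose by 9.55 ± 0.31 and MMP1, a collagenase, by 7.37 ± 0.22 (limma adjusted p = 1.67e-06 and 1.17e-06). MMP10, or stromelysin-2, rose by 2.77 and MMP19 by 1.88. The 11 include MMP12, above the noise limit on 9 of 9 LPS arrays and 0 untreated arrays and so at least 2.21-fold higher, and RECK, above it on only 4 of 9 LPS arrays. Within the same arrays TIMP1 rose by 2.84 and TIMP2 by 1.97, so the differences of these probes were unequal in size. Levels of different probes are not comparable and no ratio of inhibitor to enzyme is given.

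Helpers of ADAM maturation moved in both directions. Of 13 such genes 4 rose and 1 fell with LPS, against 22.5% called in either direction over all probes, with a median of 0.36. TSPAN15, TSPAN33 and TSPAN10 rose and TSPAN5 fell, all of them tetraspanins of the C8 group that escort ADAM10 out of the endoplasmic reticulum. TSPAN5 had 4.68, 4.91 and 4.48 in LPS cultures against 8.15, 7.99 and 7.91 in untreated cultures, a fall of -3.33 ± 0.25 (limma adjusted p = 6.77e-05). On 2 of 9 LPS arrays it was no longer above the noise limit. TSPAN15 averaged 7.47 in LPS cultures, with a lowest value of 7.12, against 4.86 in untreated cultures, a rise of 2.61 ± 0.20 (adjusted p = 8.7e-05). TSPAN33 rose by 2.72 ± 0.21 (limma adjusted p = 8.55e-05) and TSPAN10 by 0.97 ± 0.21 (adjusted p = 0.01). RHBDF2, the inactive rhomboid iRhom2 that ADAM17 needs to reach the cell surface in myeloid cells, had 10.61, 11.16 and 11.45 in LPS cultures against 9.68, 9.71 and 9.69 in untreated cultures. It rose by 1.38 ± 0.25 (limma adjusted p = 0.00488), in the comparison where ADAM17 itself was not called. FURIN, a convertase that removes ADAM prodomains, was at 0.47 with LPS (limma adjusted p = 0.179). It was at 0.72 with PBD150 plus LPS against untreated (adjusted p = 0.0471), a call that was lost in a fit of those 2 groups alone (adjusted p = 0.0542) and with median centring (0.157). Leaving out any 1 untreated replicate, LPS replicate 2 or 3, or PBD150 plus LPS replicate 1 or 2 also ended it (adjusted p = 0.0603 to 0.148).

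Known substrates of ADAM10 and ADAM17 rose more often than they fell. Of 20 measured genes 12 rose and 3 fell with LPS, against 10.6% higher and 11.8% lower over all probes, with a median of 1.46. ICAM1, an adhesion molecule, rose by 3.68 ± 0.22 and TNFRSF1B, TNF receptor 2, by 3.59 ± 0.22 (limma adjusted p = 2.81e-05 and 2.84e-05). TREM2, a lipid-sensing myeloid receptor, rose by 3.29 ± 0.19 and HBEGF, a ligand of the EGF receptor, by 2.43 ± 0.16. The 3 that fell, named after their values were seen, were IL6R, TNFRSF1A and APP. IL6R, the IL-6 receptor, had 4.85, 5.95 and 5.60 in LPS cultures against 8.32, 8.50 and 8.42 in untreated cultures and fell by 2.95 on the log2 scale (SE 0.32, limma adjusted p = 0.000403). TNFRSF1A, TNF receptor 1, was at -1.69 ± 0.22 (limma adjusted p = 0.00102), opposite in sign to TNFRSF1B. APP, the amyloid precursor, was at -0.85 (limma adjusted p = 0.0235). As deposited, APP did not pass (-0.55, adjusted p = 0.135), nor did it without untreated replicate 1 or 2 or LPS replicate 2 or 3 (adjusted p = 0.0656 to 0.0862).

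Of 14 measured other ADAM family genes 4 rose with LPS and 0 fell, against 10.6% higher over all probes, with a median of 0.51. ADAMDEC1, a secreted ADAM-like protease of macrophages, had 8.77, 8.23 and 8.51 in LPS cultures against 4.22, 3.94 and 4.55 in untreated cultures and rose by 4.26 ± 0.26 (limma adjusted p = 2.8e-05). Its probe was above the noise limit on all 9 LPS arrays but only 6 of 9 untreated ones, so the size of this rise rests on dim untreated values. ADAM28, a lymphocyte ADAM, was above the noise limit on all 9 LPS arrays and on 0 untreated arrays, so that its rise is given as at least 3.5-fold (adjusted p = 0.000519), setting its LPS mean against the untreated mean with values under the noise limit raised to it. ADAM22 and ADAM33 were at 0.93 and 0.80 (limma adjusted p = 0.025 and 0.0274), and with median centring only ADAMDEC1 and ADAM28 of the list were called, ADAM22 having adjusted p = 0.0596 and ADAM33 0.0725. ADAM22 was also lost with all 27 arrays (adjusted p = 0.266). With 1 replicate left out the list had 2 to 4 calls, and 2 without untreated replicate 1 or 3 or LPS replicate 3. None of 19 ADAMTS proteases, secreted relatives of which some cut matrix proteoglycans, was called with LPS (limma), and 1 had an unadjusted p under 0.05, ADAMTS16. On the values as deposited 2 were called, and 1 was called as higher with all 27 arrays or without LPS replicate 2, and 1 as lower without untreated replicate 1. With PBD150 plus LPS against untreated 2 of 19 were called as higher, against 12.6% of all probes. They were ADAMTS13 (1.03) and ADAMTS16 (1.12) (limma adjusted p = 0.0429 and 0.0279). That count of 2 ran from 0 to 4 with 1 replicate left out and was 0 with median centring and 1 in a fit of those 2 groups alone. ADAMTS16 was also lost with all 27 arrays (adjusted p = 0.0645). The count was 0 without any 1 untreated replicate or without PBD150 plus LPS replicate 1 or 2, 1 without LPS replicate 2 or 3, and 4 without PBD150 plus LPS replicate 3.

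**Figure D4:**
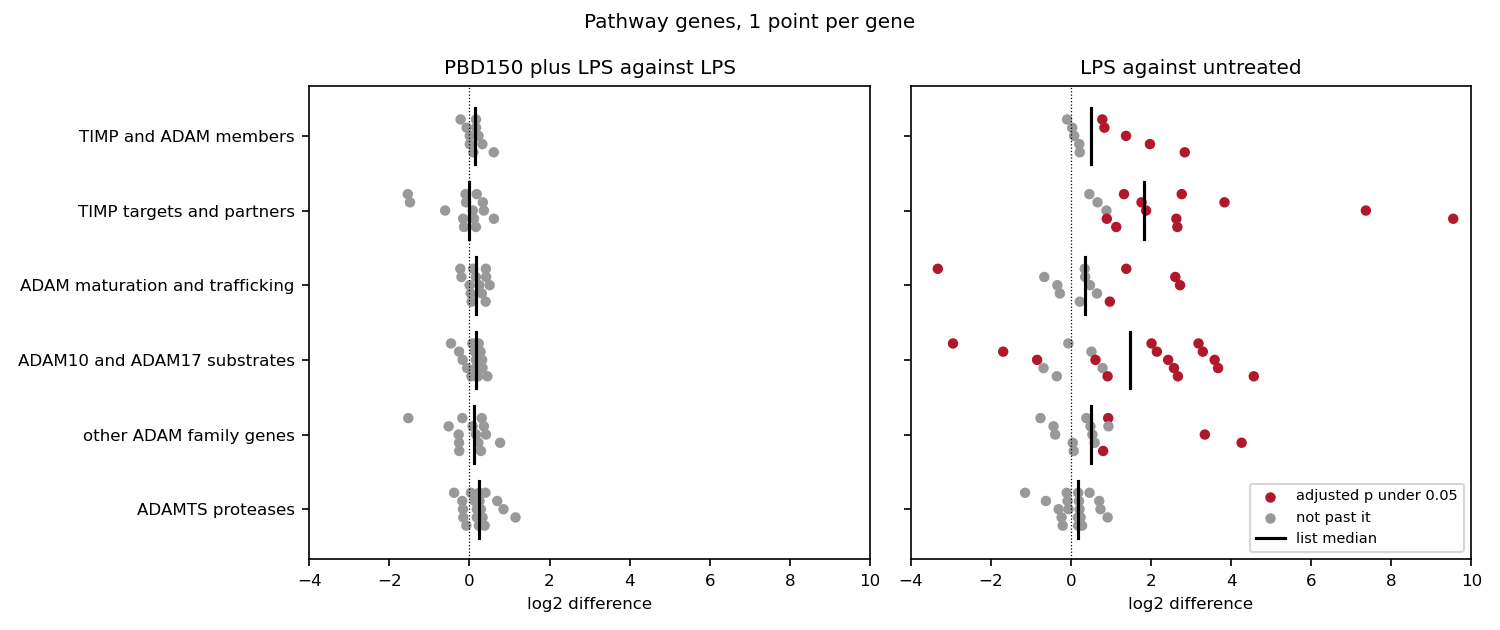
Log2 difference (x axis) of each gene in the members and in 5 pathway lists (y axis), for PBD150 plus LPS against LPS and for LPS against untreated. Red points passed at adjusted p under 0.05 (limma) and black lines are list medians. The LPS median is 1.82 for TIMP targets and partners, 1.46 for substrates and 0.50 for the members, and no point is red with PBD150 plus LPS against LPS.

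In PBD150 plus LPS against LPS no gene of the 5 lists was called (limma). The lists held 14, 13, 20, 14 and 19 measured genes. Of all these, ADAM22 and RECK alone had an unadjusted p under 0.05, against 5.11% of all probes. ADAM22, a catalytically inactive ADAM known as a neuronal receptor, had 5.47, 4.85 and 5.59 in PBD150 plus LPS cultures against 6.96, 6.73 and 6.79 in LPS cultures, and 5.87, 6.15 and 5.69 in untreated cultures. The PBD150 plus LPS values lay below those of both other groups, and the difference from LPS was -1.53 ± 0.24 (limma adjusted p = 0.414). RECK, a membrane-anchored inhibitor of MMPs, was above the noise limit on 0 of 9 PBD150 plus LPS arrays and 4 of 9 LPS arrays, so no size of difference is given (limma adjusted p = 0.414). MMP12, the macrophage elastase, had 2.56, 4.18 and 4.38 in PBD150 plus LPS cultures against 6.42, 4.44 and 4.72 in LPS cultures, a difference of -1.49 ± 0.68 (limma adjusted p = 0.906). It was above the noise limit on 4 of 9 PBD150 plus LPS arrays and 9 of 9 LPS arrays. Among maturation helpers and substrates the smallest p were those of TSPAN15 (0.41 ± 0.20) and CD163, a shed scavenger receptor (-0.46 ± 0.28), both with limma adjusted p = 0.906. List medians were 0.00 for TIMP targets and partners, 0.16 for maturation helpers, 0.17 for substrates, 0.12 for other ADAMs and 0.23 for ADAMTS proteases, beside 0.03 for all probes.

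Against untreated cells, PBD150 plus LPS gave 11 of 14 higher for TIMP targets and partners and 5 of 13 higher and 1 lower for maturation helpers. It gave 12 of 20 higher and 3 lower for substrates, 5 of 14 higher for other ADAMs and 2 of 19 higher for ADAMTS proteases. Over all probes 12.6% were higher and 13.5% lower. These counts share the untreated cultures with the LPS counts.

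Over the 9 cultures, the named genes whose values followed TIMP1 most closely were TNFRSF1B, ICAM1 and TUBGCP2, with Pearson r of 0.9996, 0.9988 and 0.9985. For ADAM8 they were CLSTN1, FAM219B and BHLHE40 (r = 0.994, 0.99 and 0.99), and for ADAM17 they were COL9A3, KLHL28 and ATG4D (r = 0.972, 0.969 and 0.962). These are descriptions over 9 values picked from 17396 named probes. For TIMP1 and ADAM8 the 9 values hold the step between untreated and treated cultures.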

How the data were processed

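RNA of 9 U937 cultures was labelled with Cy5 and hybridised to 1-colour Phalanx Human OneArray microarrays, 3 per culture, per the labels. The deposited values are probe intensity on a linear scale, some below 0. How they were scanned, background-corrected or scaled is not given in the sources used here. Here, intensities were floored at 1, taken to log2, quantile normalised over 27 arrays and averaged per culture. Group means were fitted with limma 3.58.1 in R 4.3.3 (two-sided, empirical Bayes, all 3 groups sharing 1 spread), with Benjamini-Hochberg adjustment over 30968 probes. With 3 cultures per group, their number limits precision. No 2 arrays held identical values. By the platform's annotation, 17397 probes had 1 gene symbol, 0 had several and 13571 had none, and 2645 symbols were updated through RefSeq. Promoter sequences are from RefSeq. Named were all member probes, up to 4 genes per pathway list with the smallest p in LPS against untreated and in PBD150 plus LPS against LPS, and the 3 genes most like TIMP1, ADAM8 and ADAM17. TSPAN10, FURIN, IL6R, TNFRSF1A and APP, and MMP12 and RECK in the LPS comparison, were named after their values were seen. A list gene stands for its brightest probe. Members and lists were chosen with earlier results of these data known. Alternatives were no quantile normalisation, median centring, pseudocount 16, leaving out dim probes, all 27 arrays with the culture as a random block, 2-group fits, the replicate number as a block, and leaving out each replicate. The test was checked on simulated data.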

Additional observations from a re-analysis of the deposited data

How the results depend on the processing

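Over 16 alternatives the 10 called member differences kept sign in all 160 values and stayed called in 149. In many of these settings the sign could not turn. Leaving out dim probes, either block, the 2-group fits and leaving out a replicate of the group not compared do not alter the difference itself. There only the call could change. The 11 lost calls were those of ADAM19 and ADAM10 given above and that of ADAM19 with LPS under the replicate block (limma adjusted p = 0.0976). With LPS against untreated, all-probe calls were 3292 higher and 3664 lower, against 5935 and 2205 as deposited, 2279 and 3806 with median centring and 2415 to 4160 lower with 1 replicate left out (2415 without untreated replicate 2). With PBD150 plus LPS against untreated they were 3887 and 4174, and 2635 and 4256 with median centring. With PBD150 plus LPS against LPS they were 0, but 1 higher and 13 lower with all 27 arrays. Signs turned only among uncalled member differences, and the cause was not tested. As deposited, ADAM15 was at 0.28 with LPS and 0.054 with PBD150 plus LPS against untreated, and in PBD150 plus LPS against LPS TIMP1 was at -0.12, TIMP2 -0.074, ADAM9 -0.20, ADAM15 -0.22 and ADAM17 -0.043. With median centring TIMP3 was at -0.12 and ADAM9 -0.14 with LPS, ADAM9 -0.19 with PBD150 plus LPS against untreated, and ADAM9 -0.045 and ADAM15 -0.064 against LPS. With pseudocount 16 TIMP3 was at 0.037 with PBD150 plus LPS against untreated. With 1 replicate left out, LPS against untreated ran from -0.061 to 0.12 for ADAM9, -0.50 to 0.64 for TIMP3, -0.013 to 0.49 for ADAM17 and -0.050 to 0.51 for TIMP4. PBD150 plus LPS against untreated ran from -0.54 to 0.15 for TIMP3 and -0.11 to 0.18 for ADAM9. PBD150 plus LPS against LPS ran from -0.069 to 0.24 for TIMP1, -0.022 to 0.32 for TIMP2, -0.035 to 0.085 for ADAM15, -0.12 to 0.38 for ADAM17, -0.78 to 0.36 for TIMP3 and -0.14 to 0.15 for ADAM9. No pairing of cultures by replicate number was seen. Deviations of same-numbered cultures correlated at -0.219 to 0.036, and those of other pairs at -0.072 to 0.189. The labels do not say whether a number marks a shared day, and these correlations cannot exclude it. A replicate block gave 2508 higher and 2897 lower calls with LPS, 2895 and 3433 with PBD150 plus LPS against untreated and 0 in PBD150 plus LPS against LPS, and members called were 4, 5 and 0. It also ended the limma calls of APP (adjusted p = 0.0574), ADAM22 (0.0622) and ADAM33 (0.0764) with LPS and of FURIN (0.101), ADAMTS13 (0.0871) and ADAMTS16 (0.0665) with PBD150 plus LPS against untreated. The low signal of TIMP3 and TIMP4 limits what could be seen for them.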
